A study of Mus musculus with 12 samples.

Results

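A pair of haploid embryonic stem cell lines of the mouse, A129-6 and A129-2, were compared for their microRNAs (miRNAs). The comparison used the 5 small RNA libraries whose labels give one of these line names, 3 of A129-6 and 2 of A129-2, out of 12 libraries in the study. Both lines are androgenetic, so their chromosomes came from sperm alone, as a single set in the cells that were haploid. Both were wild type, were derived in serum replacement medium and grown on in serum medium, with LIF and 2 kinase inhibitors (PD0325901 and CHIR99021, together called 2i) in both media, and were collected by sorting cells stained with the DNA dye Hoechst. How many cells of each sort were diploid was not given. The labels name no treatment that set the lines apart, and each is a single line, so a difference between them is a difference between these lines and not between kinds of cell. The other libraries served only as a background level: a further androgenetic haploid line, A129-17 (2 libraries), the diploid embryonic stem cell line R1 (2 libraries), and round spermatids (RS, 3 libraries), the haploid cells that meiosis forms in the testis, sorted from 129Sv males. By the labels, each replicate was a sort of its own. The sources used here name no passage, sorting date, batch or separate culture, so a p-value measures how far these samples spread, which may be technical spread.

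A miRNA is a short RNA cut from a hairpin precursor, whose arms give a 5p and a 3p product. It guides Argonaute proteins to messenger RNAs mainly through its seed, the bases from position 2 to 8, and lowers their output. The miR-290 cluster is abundant in mouse embryonic stem cells, and the miR-302 cluster, which shares its main seed, becomes more abundant when cells leave the naive state. The let-7 family opposes pluripotency, and its processing is blocked by LIN28 in these cells. Mice also carry a fast-evolving cluster of miRNA genes on the X chromosome that is best known from the testis, where its members are abundant in male germ cells.

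The sequences of the miRNAs on which the comparison turned are printed 5′ to 3′ from RefSeq (GRCm38.p6), with the seed in capitals. The first set holds the 10 members of the X-linked testis cluster that were higher in A129-6, followed by miR-465a-5p, which shares the seed of miR-465c-5p and miR-465b-5p. These 10 called members carried 9 distinct seeds.
miR-871-3p: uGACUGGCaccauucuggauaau
miR-470-5p: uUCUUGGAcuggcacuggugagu
miR-465a-3p: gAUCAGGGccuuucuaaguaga
miR-465c-5p: uAUUUAGAauggcgcugaucug
miR-465b-5p: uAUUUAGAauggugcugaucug
miR-741-3p: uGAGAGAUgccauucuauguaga
miR-743a-3p: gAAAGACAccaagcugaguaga
miR-743b-5p: uGUUCAGAcugguguccauca
miR-878-3p: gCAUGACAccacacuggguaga
miR-878-5p: uAUCUAGUuggaugucaagaca
miR-465a-5p: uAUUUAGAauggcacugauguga

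The second set holds the called miRNAs outside that cluster, with let-7a-5p because the title of the study names it.
miR-210-3p: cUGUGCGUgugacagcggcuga
miR-210-5p: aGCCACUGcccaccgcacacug
miR-302d-3p: uAAGUGCUuccauguuugagugu
miR-504-5p: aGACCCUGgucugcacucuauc
let-7a-5p: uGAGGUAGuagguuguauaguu
The mature sequence of miR-147-3p, also called, is named only. miR-465c-5p and miR-465b-5p differed at 1 base over their 22 bases, and a counter can pass reads from one to the other, so the split of counts between them is uncertain. The same holds for miR-883a-3p and miR-883b-3p, which also differed at 1 base.

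Marker miRNAs of embryonic stem cells were abundant, as the label says. The miR-290 cluster took between 64.1% and 77.1% of counts in the 5 libraries, against at most 0.678% in spermatids. Libraries held between 3709786 counts (A129-2 replicate 1) and 9102467 counts (A129-2 replicate 2), and 883 to 1064 miRNAs had at least 1 count. One library stood apart. In A129-6 replicate 3, miR-292a-5p alone took 56.9% of counts, against 40.7% and 38.9% in the other A129-6 libraries and 35.6% and 45.8% in A129-2, and its scaling factor was the lowest (0.701, against 0.959 to 1.38 in the other 4). Over 429 miRNAs with at least 10 CPM (a miRNA's counts scaled to a fixed library total) in the mean of the lines, A129-6 replicates 1 and 2 differed by a median of 0.22 on the log2 scale, and replicate 3 differed from them by 0.46 and 0.56. The A129-2 libraries differed by 0.40, and libraries of different lines by 0.31 to 0.67, a range that overlaps the one within lines. Every library of either line differed from R1 by at least 1.69.

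Between the lines 15 miRNAs passed the threshold, 13 higher and 2 lower in A129-6, and 10 of the 13 came from the X-linked testis cluster. The others that were higher were both arms of miR-210, a miRNA known for its induction by low oxygen, and miR-302d-3p of the miR-302 cluster. The 2 that were lower were miR-504-5p, which lies in an intron of Fgf13, and miR-147-3p. The 15 calls are 1.98% of the 757 miRNAs tested with edgeR's quasi-likelihood test (adjusted p under 0.05). The calls of higher level are 1.72% of those tested and the calls of lower level 0.264%. A further view needs no model: all 3 A129-6 libraries lay above both A129-2 libraries for 14.1% of the tested miRNAs and below both for 13.2%. All 15 called miRNAs had such separate libraries in normalised CPM, in which the library total is adjusted by TMM scaling, and 14 of them in plain CPM. miR-302d-3p was the exception, with 251 plain CPM in A129-6 replicate 3 against 260 in A129-2 replicate 1. The median log2 difference over all tested miRNAs was -0.05, and 159 differed by at least 2-fold, most of them scarce, since 48 of these reached 10 CPM.

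The calls were few and sat close to the threshold, with the lowest adjusted p at 0.0315 (edgeR). With total-count scaling, under which the median over all miRNAs moved to -0.24, 2 remained, miR-871-3p higher and miR-147-3p lower. Scaling by relative log expression gave 13 higher and 5 lower, and leaving the miR-290 cluster out of the scaling gave 9 and 4. Leaving out A129-2 replicate 1 or replicate 2 left none of the 15 called (1 other miRNA passed in each case, miR-677-5p and miR-503-5p, both lower). In those fits A129-2 holds 1 library, which is assumed to vary like the libraries of the other groups, and the median difference of the X-linked cluster was 1.47 and 2.09, against 1.69 with both. In edgeR fits without A129-6 replicate 1 or replicate 2, 0 miRNAs passed, with 95 and 109 at an unadjusted p under 0.05. Without A129-6 replicate 3, the library that stood apart, 7 passed: both arms of miR-210, miR-302d-3p, miR-302a-3p, miR-302a-5p and miR-871-3p higher, and miR-504-5p lower. Each of the 15 kept its direction in every one of the 18 alternative analyses that tested it.

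**Figure D1:**
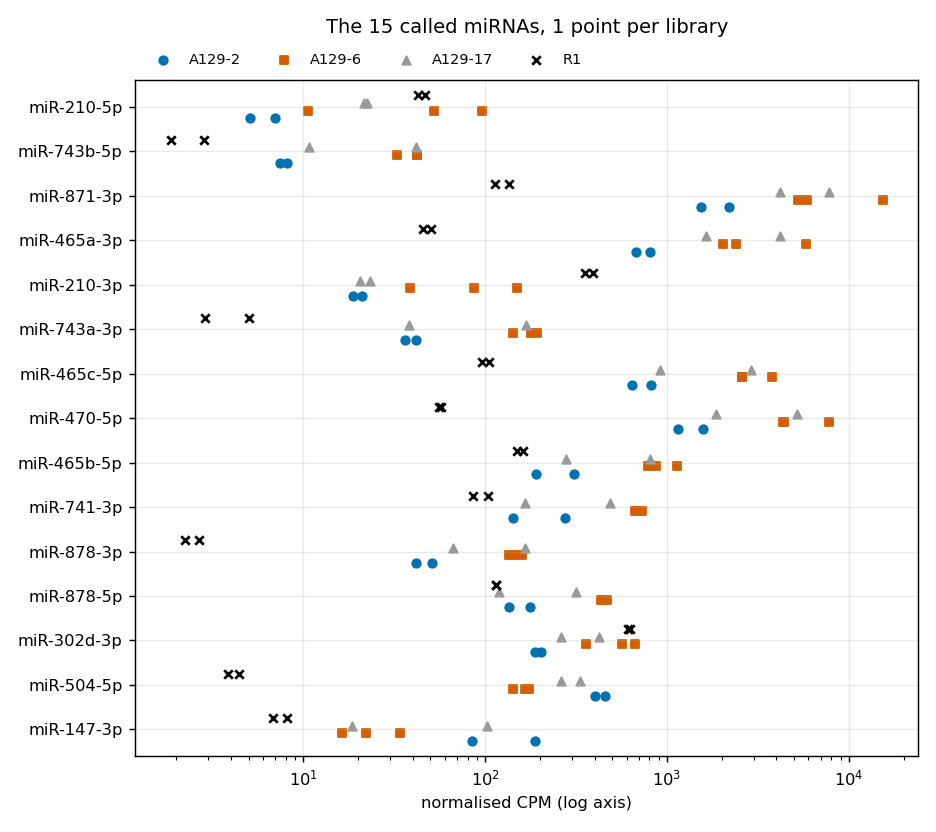
Normalised CPM (log axis) of the 15 called miRNAs, 1 point per library of A129-2, A129-6, A129-17 and R1. The A129-6 points sit above the A129-2 points for 13 miRNAs and below them for miR-504-5p and miR-147-3p, while the 2 points of A129-17 often lie far apart.

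**Figure D2:**
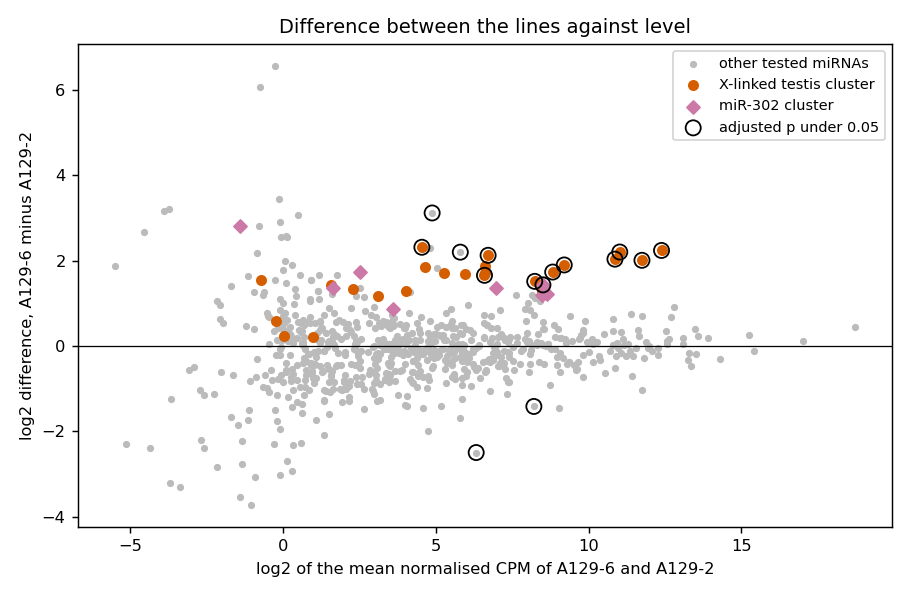
Log2 difference between A129-6 and A129-2 (vertical axis) against the log2 of the mean normalised CPM of the lines (horizontal axis), 1 point for each of the 757 tested miRNAs. Members of the X-linked testis cluster all lie above 0, while the abundant miRNAs at the right, led by miR-292a-5p, lie near 0.

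Members of the X-linked testis cluster were higher in A129-6, the called ones by 1.52 to 2.32 on the log2 scale. In such bulk samples a larger share of cells that express a miRNA and more of it per cell cannot be told apart. Of 24 tested members (32 stand in the table), 10 were called higher, 0 lower, and 14 did not pass. The median log2 difference of the 24 was 1.69, against -0.05 over all tested miRNAs, and each of the 24 differences was above 0, as it was under the 4 alternative scalings. All 3 A129-6 libraries lay above both A129-2 libraries for 21 of 24, against 14.1% of all tested miRNAs. Among the 17 members with a mean of at least 10 CPM this held for 17. That mean is over both lines, so a member could reach it by its level in A129-6 alone, and the count is no separate support. The number of calls moved with the fit: 16 with DESeq2 and 16 when only the 5 libraries of these lines were fitted, but 1 with total-count scaling, 0 with a stricter filter, 0 without any one of A129-2 replicate 1, A129-2 replicate 2, A129-6 replicate 1 or A129-6 replicate 2, and 1 without A129-6 replicate 3. The median difference stayed between 1.47 and 2.09 over those analyses.

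As a share of all counts, with no scaling between libraries, the cluster held 0.670% and 0.643% in A129-2 and 2.08%, 2.10% and 2.54% in A129-6. The lowest A129-6 library was thus about 3 times the highest of A129-2. In A129-17 the cluster held 0.723% in replicate 1 and 2.11% in replicate 2, so 1 library of that line sat at the level of A129-2 and the other at that of A129-6. In the shallowest library, A129-2 replicate 1, the exact Clopper-Pearson 95% interval ran from 0.661% to 0.678%, which covers counting error only. R1 held 0.154% and 0.153%, and round spermatids 24.5%, 19.96% and 13.7%.

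**Figure D3:**
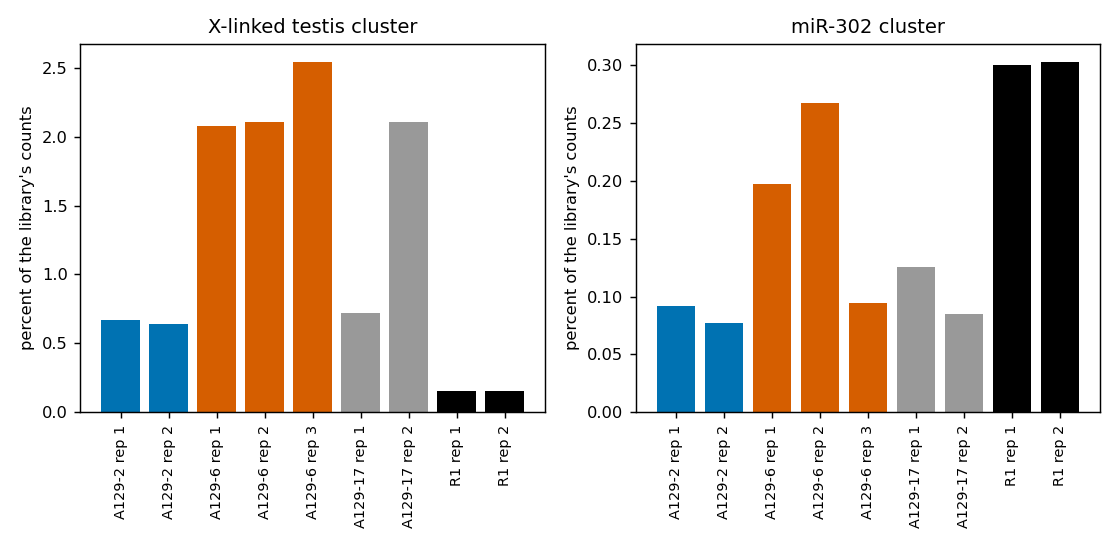
Percent of all counts taken by the X-linked testis cluster and by the miR-302 cluster (vertical axes, from 0), 1 bar per embryonic stem cell library, coloured by line. For the X-linked cluster the A129-6 libraries (2.08% to 2.54%) and A129-17 replicate 2 lie above all others, and for the miR-302 cluster A129-6 replicate 3 lies close to A129-2.

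The most abundant member was miR-871-3p, with 1542 and 2192 normalised CPM in A129-2 and 5862, 5235 and 15386 in A129-6. The third A129-6 library was far above the others, and the groups did not overlap. The log2 difference was 2.24 (SE 0.45, adjusted p = 0.0315, edgeR), or 4.73-fold. Without A129-6 replicate 3 it was 1.57 (adjusted p = 0.0312, edgeR). miR-470-5p, from a neighbouring hairpin, was at 1150.3 and 1579 CPM in A129-2 and at 4376, 4347 and 7768 in A129-6. Its log2 difference was 2.01 (SE 0.41, adjusted p = 0.0315, edgeR), and again the third A129-6 library was the highest. In plain CPM the A129-6 libraries were close for miR-470-5p, at 4888, 5160 and 5445. For miR-871-3p they were at 6549, 6214 and 10784.

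The miR-465 hairpins lie at the upper end of the cluster. miR-465c-5p was at 644 and 814 CPM in A129-2 and at 2589.7, 2591 and 3791 in A129-6, a log2 difference of 2.04 (SE 0.41). miR-465a-3p was at 673 and 806 CPM in A129-2 and at 2391, 2038 and 5798 in A129-6, a difference of 2.20 (SE 0.47), which was 1.58 without A129-6 replicate 3 (adjusted p = 0.0650, edgeR). Both were separate between the lines, and both carry an adjusted p of 0.0315 (edgeR). miR-465b-5p, whose counts cannot be told cleanly from those of miR-465c-5p, had 190.4 and 307 CPM in A129-2 and 875, 782 and 1129 in A129-6. Its log2 difference was 1.90 (SE 0.40). The other arm of miR-465a, miR-465a-5p, shares the seed of miR-465c-5p and did not pass (1.68, adjusted p = 0.0646, edgeR), with 14.8 and 43.7 CPM in A129-2 and 101, 102 and 81.5 in A129-6.

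In normalised CPM the A129-6 libraries lay close together for miR-741 and miR-878. miR-741-3p was at 142 and 276 CPM in A129-2 and at 691, 731 and 670.0 in A129-6, a log2 difference of 1.74 (SE 0.41, adjusted p = 0.0444, edgeR). It was 2.36 without A129-2 replicate 2, the higher of the A129-2 libraries (adjusted p = 0.0646, edgeR). miR-878-5p was at 136 and 176 CPM in A129-2 and at 440, 468 and 433 in A129-6. Here the third A129-6 library was the lowest of the 3, unlike for miR-871-3p. The opposite arm, miR-878-3p, was at 41.8 and 51.0 CPM in A129-2 and at 144, 136 and 160.1 in A129-6. The 2 arms differed by 1.52 (SE 0.37) and 1.66 (SE 0.39) on the log2 scale. Of 213 precursors with both arms tested, miR-878 and miR-210 were the only ones for which both arms were called. In plain CPM A129-6 replicate 3 lay further from the other A129-6 libraries. It was at 470 against 772 and 867 for miR-741-3p, and at 304 against 491 and 556 for miR-878-5p. For miR-878-3p it was at 112 against 161 in each of the others.

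The miR-743 pair lies at the lower end of the cluster. miR-743a-3p was at 36.1 and 41.8 CPM in A129-2 and at 178, 192 and 142 in A129-6, a log2 difference of 2.13 (SE 0.51, adjusted p = 0.0444, edgeR). miR-743b-5p, the scarcest of the called members, was at 7.42 and 8.14 CPM in A129-2 and at 32.8, 41.9 and 41.9 in A129-6. Its difference of 2.32 (SE 0.52) was the highest among the 24 members. miR-743b-3p, with the same seed as miR-743a-3p, and miR-743a-5p just missed the threshold, at 1.72 (adjusted p = 0.0552) and 1.87 (adjusted p = 0.0595, edgeR).

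The remaining members did not pass. miR-880-3p differed by 1.71 (adjusted p = 0.0716, edgeR), miR-883a-3p by 1.85 (adjusted p = 0.126) and miR-881-3p by 1.28 (adjusted p = 0.121). miR-881-3p is the most abundant member in spermatids, and it had 149 and 263 CPM in A129-2 against 487, 527 and 482 in A129-6. Scarce members (miR-871-5p, both arms of miR-471 and of miR-463, and miR-883b-5p) had differences from 0.24 to 1.54, with an SE of at least 0.56. The lowest difference among the 24 was that of miR-883b-3p, 0.21 (SE 0.84). miR-547-3p, which is put with the cluster but lies about 1 Mb away, was near 1 CPM in both lines and differed by 0.59 (SE 1.37).

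In the annotation the cluster spans chrX:66776757-66839125 (GRCm38.p6), 62.4 kb with 19 precursors, all on the minus strand and with no other gene over them. It held 23 of the 24 tested members. miR-465a, at 66839052 to 66839125, is the first in the direction of transcription, miR-871 lies at 66810428 to 66810504, and miR-743a, at 66776757 to 66776818, is the last. Called members stood at both ends and in the middle. Both arms of miR-878 and the neighbouring miR-880-3p differed from each other by less than their standard errors. For the 8 precursors of the cluster with both arms tested, both arms had the same sign in 8. This follows from all 24 differences being above 0 and adds nothing to it.

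**Figure D4:**
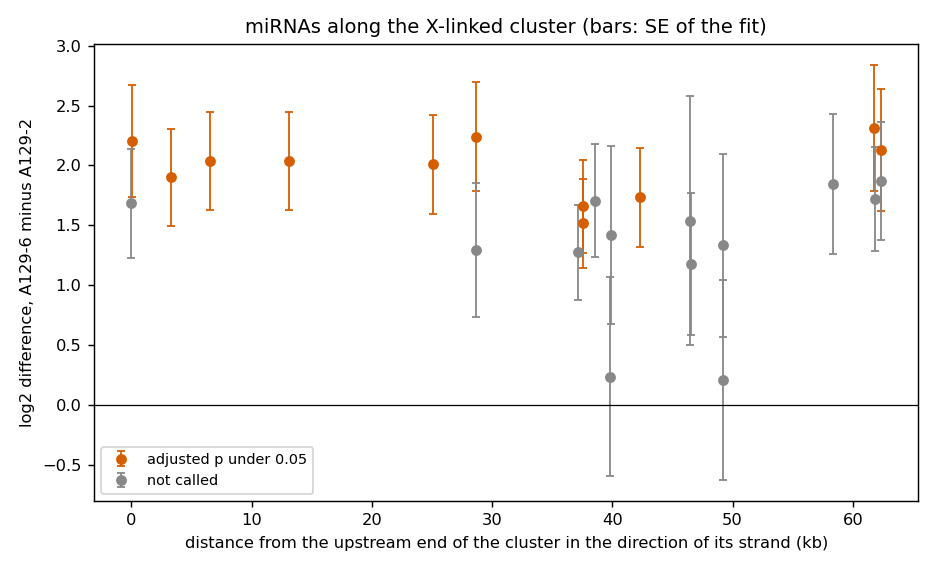
Log2 difference between A129-6 and A129-2, with the SE of the fit as bars, for tested members of the X-linked testis cluster by distance in kb from its upstream end (orange called, grey not called; miR-465c-5p appears at both of its precursors). Called members appear from the first to the last hairpin, and members with wide bars are the scarce ones.

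miR-871-3p and then miR-470-5p led the counts of the cluster in all 5 libraries. miR-871-3p made up 31.8% and 32.7% of its counts in A129-2 and 31.6%, 29.5% and 42.4% in A129-6. miR-470-5p made up 23.7% and 23.5% in A129-2 and 23.6%, 24.5% and 21.4% in A129-6. miR-465a-3p made up 13.9% and 12.01% in A129-2 and 12.9%, 11.5% and 15.97% in A129-6. The first 2 A129-6 libraries were thus within a few percentage points of A129-2 for these 3 members, and A129-6 replicate 3 had a larger part of miR-871-3p. That library had a smaller part of several other members, such as miR-741-3p at 1.85% (3.72% and 4.12% in the other A129-6 libraries, 2.93% and 4.12% in A129-2) and miR-878-5p at 1.19% (2.37% and 2.64%, against 2.80% and 2.63%). Spermatids had another make-up, in which miR-881-3p took 70.4%, 45.1% and 35.9% of the cluster and miR-871-3p 10.5%, 17.8% and 26.8%. In the lines compared here miR-881-3p took 3.07% and 3.91% (A129-2) and 2.62%, 2.98% and 1.33% (A129-6), lower in each A129-6 library. A129-17 was also low, at 1.43% and 1.77%. The diploid stem cell line R1 was not, since miR-881-3p took 44.4% and 44.2% there, within the range of spermatids. The make-up was not tested.

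The libraries of the third haploid line differed from each other for most members. A129-17 replicate 2 lay above replicate 1 for 21 of the 24 members. For 22 members A129-17 replicate 1 lay below every A129-6 library, and for 20 members A129-17 replicate 2 lay above every A129-2 library. miR-743a-3p, for example, was at 38.1 and 167 CPM in A129-17. miR-871-3p was at 4169 and 7776, so there replicate 1 lay between the libraries of A129-2 and those of A129-6. R1 was low for most members, with 134 and 114 CPM of miR-871-3p. All A129-6 libraries were above both R1 libraries for 19 members and all A129-2 libraries for 16. miR-881-3p was one that R1 held at the higher level, with 651 and 609.5 CPM.

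Other miRNAs of the X chromosome were called at about the share of all tested miRNAs, which was 1.98% of 757. Of 46 other tested miRNAs that map to X alone, 0 were higher and 1, miR-504-5p, was lower, with 15 differences above 0 and 31 below and a median of -0.19. The 536 tested miRNAs whose mature sequence RefSeq places on autosomes alone had a median of -0.07, with 3 higher and 0 lower. The remaining tested miRNAs had no mature position or lay on X and autosomes, among them the called miR-147-3p, whose hairpin is autosomal. miR-504-5p lies at chrX:59097705-59097726 on the minus strand, in an intron of Fgf13, a gene of the same strand. It was at 457 and 404 CPM in A129-2 and at 143, 175 and 166 in A129-6. Its log2 difference of -1.41 (SE 0.27, adjusted p = 0.0315, edgeR), 2.67-fold lower, had the smallest p of the comparison. A129-17 lay between, at 334 and 261 CPM, and R1 was at 3.85 and 4.43.

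The cluster of miR-322 and miR-503, also on X and with miR-15/16-type seeds among its members, had 11 tested members, of which 0 passed in edgeR and 2 had an unadjusted p under 0.05. DESeq2 called those 2, miR-322-5p and miR-503-5p, lower. The median was -0.43, and 9 of 11 differences were below 0. miR-503-5p was at 1104 and 438 CPM in A129-2 and at 256, 381 and 211 in A129-6. Its libraries were separate, yet the A129-2 libraries differed from each other by more than the gap between the lines, and the difference of -1.45 (SE 0.37) had an adjusted p of 0.0552 (edgeR). The more abundant miR-351-5p differed by -0.43 (SE 0.38) and miR-322-3p by -0.76 (SE 0.38).

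miR-210 comes from a hairpin at chr7:141221384-141221493 (minus strand, no other gene over it). miR-210-3p was at 18.7 and 21.1 CPM in A129-2 and at 149, 87.1 and 38.8 in A129-6. Every A129-6 library was above A129-2, but they ranged over almost 4-fold among themselves. The log2 difference was 2.20 (SE 0.46, adjusted p = 0.0315, edgeR). The other arm, miR-210-5p, followed the same order, with 5.08 and 6.99 CPM in A129-2 and 95.5, 52.4 and 10.6 in A129-6, and its difference of 3.12 (SE 0.68, adjusted p = 0.0361, edgeR) was the highest of all called miRNAs. A129-17 had 23.2 and 20.4 CPM of the 3p arm, the level of A129-2, and R1 had 352 and 391, above every A129-6 library. The 5p arm differed in this: A129-17, at 21.5 and 22.3 CPM, lay above both A129-2 libraries and above A129-6 replicate 3, and R1, at 42.7 and 46.9, lay below A129-6 replicates 1 and 2. In plain CPM, with no scaling between libraries, A129-6 replicate 3 was barely above A129-2 for both arms. The 3p arm was at 27.2 in that library against 25.9 and 20.2 in A129-2, and the 5p arm at 7.42 against 7.01 and 6.70. Without A129-6 replicate 3, the library with the lowest level of the 3, the differences of the 3p and 5p arms were 2.56 and 3.59. Without A129-6 replicate 1, the library with the highest level, they were 1.66 and 2.38, and neither passed (adjusted p = 0.111 for each, edgeR).

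The miR-302 cluster lies at an autosomal site, with miR-302d at chr3:127545624-127545689 on the plus strand, in an intron of Larp7, which runs on the opposite strand. Of its 8 tested members 1, miR-302d-3p, was higher and 7 did not pass, with a median log2 difference of 1.35, 5 at an unadjusted p under 0.05, and all 8 above 0 in normalised data. In normalised CPM all 3 A129-6 libraries were above both A129-2 libraries for 8 of 8, against 14.1% of all tested miRNAs. This depended on the scaling: in plain CPM the lines overlapped for miR-302a-3p, miR-302c-3p, miR-302d-3p and miR-302d-5p. miR-302d-3p was at 189 and 204 CPM in A129-2 and at 569, 664 and 358 in A129-6, a difference of 1.43 (SE 0.32, adjusted p = 0.0361, edgeR). A129-6 replicate 3 was again nearest to A129-2. R1 had 629 and 611 CPM and A129-17 had 423 and 263, so A129-2 was the lowest of the 4 lines.

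Other members were close to the threshold. miR-302a-5p differed by 1.22 (adjusted p = 0.0595, edgeR), with 207 and 275 CPM in A129-2 and 533, 743 and 409 in A129-6. miR-302a-3p differed by 1.35 and miR-302b-3p by 1.19 (adjusted p = 0.0646 for each, edgeR). DESeq2 called 4 members higher, these 3 and miR-302d-3p. The scarce members miR-302c-3p, miR-302c-5p, miR-302d-5p and miR-302b-5p differed by 0.88, 1.74, 1.35 and 2.82, with an SE between 0.45 and 1.68. As a share of all counts the cluster held 0.0920% and 0.0770% in A129-2 and 0.198%, 0.268% and 0.0945% in A129-6, so with no scaling the third A129-6 library was at the level of A129-2. R1 held 0.3002% and 0.303%.

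The miR-290 cluster, which shares the seed AAGUGCU of miR-302d-3p and miR-302b-3p through miR-291a-3p, miR-294-3p and miR-295-3p, showed no such difference. Of its 18 tested members 0 passed in edgeR, 0 had an unadjusted p under 0.05 and DESeq2 called 0, with a median of 0.12. miR-294-3p differed by 0.19 (SE 0.26) and miR-295-3p by 0.23 (SE 0.33). The cluster took 64.1% and 74.4% of counts in A129-2 and 70.9%, 68.6% and 77.1% in A129-6, with overlap. The most abundant miRNA of all, miR-292a-5p, was at 258094 and 477899 CPM in A129-2 and at 364014, 327611 and 812297 in A129-6, a difference of 0.45 (SE 0.41, adjusted p = 0.711, edgeR). Other abundant members, miR-292b-3p (0.12), miR-292a-3p (0.27) and miR-293-3p (-0.11), differed by less than their SE.

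miR-147-3p was the only called miRNA that was lower besides miR-504-5p. Its hairpin lies at chr2:122640803-122640881 on the plus strand, within the UTR of AA467197, a protein-coding gene of the same strand. It was at 187 and 84.2 CPM in A129-2 and at 16.4, 22.1 and 33.9 in A129-6. Both A129-2 libraries were above all A129-6 libraries, although they differed from each other by over 2-fold. The log2 difference was -2.49 (SE 0.56, adjusted p = 0.0361, edgeR), or 5.64-fold lower. Without A129-2 replicate 1, the higher of the A129-2 libraries, it was -1.82 (adjusted p = 0.313, edgeR). A129-17 had 103 and 18.5 CPM, one value in the range of each of the other lines, and here replicate 1 was the higher one.

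let-7a-5p, which the title of the study names, did not pass. It was at 907 and 652 CPM in A129-2 and at 785, 729 and 1092 in A129-6, and the libraries of the lines overlapped. The means were 779 ± 180 (SD, n = 2) in A129-2 and 869 ± 196 (SD, n = 3) in A129-6. The log2 difference was 0.16 (SE 0.28, adjusted p = 0.878, edgeR), with a 95% interval from -0.45 to 0.76, that is from 0.734-fold to 1.69-fold. R1 had 187 and 192 CPM, and A129-17 had 973 and 1442.

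Of the 12 tested let-7 family members 0 passed in edgeR, 0 had an unadjusted p under 0.05 and DESeq2 called 0. The median was 0.01, with 6 differences above 0 and 6 below. The abundant members let-7f-5p (0.04), let-7i-5p (-0.14), let-7e-5p (0.08), let-7c-5p (0.40), let-7g-5p (-0.25) and let-7b-5p (-0.02) had an SE between 0.23 and 0.33, and the less abundant let-7d-5p (0.15), miR-98-5p (-0.13) and let-7d-3p (-0.55) one between 0.35 and 0.36. Signs of several of these small differences turned with the scaling, as listed in the closing section. let-7e-3p (-1.29) and let-7a-1-3p (3.21) had means under 4 CPM in both lines. As a share of counts the family held 0.781% and 0.461% in A129-2 and 0.579%, 0.590% and 0.412% in A129-6. Because family members differ by few bases, reads can be counted for the wrong one.

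Imprinted miRNA genes were also followed, since both lines hold paternal chromosomes only. In the Dlk1-Dio3 region, whose miRNAs are as a rule expressed from the maternal chromosome, 34 members of the proximal group and 63 of the distal group were tested and 0 passed in either (edgeR), with 4 at an unadjusted p under 0.05 in each. DESeq2 called 1, miR-431-3p, lower. The medians were -0.03 and -0.04. The abundant members miR-127-3p (-0.31, SE 0.29), miR-370-3p (0.19, SE 0.30), miR-433-3p (0.18, SE 0.25), miR-541-5p (0.68, SE 0.44), miR-409-3p (0.12, SE 0.28) and miR-411-5p (-0.04, SE 0.28) did not pass.

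The miRNA families known from an intron of Sfmbt2, a gene expressed from the paternal chromosome, gave the same count. Their members were taken by name, and whether each lies in that intron was not checked. Of 26 tested members of the miR-466 and miR-297 families and 28 of the miR-467 and miR-669 families 0 passed in edgeR, with 7 and 3 at an unadjusted p under 0.05 and medians of 0.13 and 0.30. DESeq2 called 2 higher in each, miR-466a-3p and miR-466f-3p, and miR-467a-3p and miR-467d-3p. These families hold many near-identical copies, so counts of single members are uncertain. Among 7 tested miRNAs of other paternally expressed hosts 0 passed in edgeR or DESeq2, 2 had an unadjusted p under 0.05, and the median was -0.71. miR-296-3p, the one at that median, had 3618 and 3128 CPM in A129-2 and 2067, 2640.1 and 1477 in A129-6, separate but with an adjusted p of 0.226 (edgeR). miR-298-5p of the same host differed by -0.11 and miR-335-3p by 0.16.

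Markers of other cells did not pass in edgeR. For mesenchymal cells and feeder fibroblasts 9 miRNAs were tested, 0 passed, 0 had an unadjusted p under 0.05 and DESeq2 called 0. All 9 differences were below 0, with a median of -0.44, and none of the 9 was at 0 in all 5 libraries. Their summed share was 2.68% and 0.671% in A129-2 and 1.11%, 1.23% and 0.587% in A129-6, highest in A129-2 replicate 1 and overlapping between the lines. Blood and endothelial markers (13 tested, 0 called, 3 at an unadjusted p under 0.05, DESeq2 0) held 0.0470% to 0.0961% in the 5 libraries. Neural, muscle, liver and endocrine markers (19 tested, 0 called, 2 at an unadjusted p under 0.05) held 0.265% to 0.467%, 2 of 27 were at 0 in all 5 libraries, and DESeq2 called 1, miR-124-3p, lower. Their part in the differences above was not tested.

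Of 29 lists of families, clusters and markers, 27 had 0 members called by edgeR, with 43 of their members at an unadjusted p under 0.05, and DESeq2 called a member in 7 of those 27. They included the miR-17/92 cluster and its paralogs, which promote proliferation (25 tested, median 0.01), the miR-15/16 family (11 tested, median -0.44), the miR-30 family (12 tested, median -0.19) and the miR-183 cluster (6 tested, median 0.40). In the miR-200 family, known from epithelial cells, 8 were tested with a median of -0.29, and DESeq2 called 2, miR-200a-3p and miR-429-3p, lower. The miR-34 and miR-449 families, which are abundant in late male germ cells like the X-linked cluster, had 4 tested members. All of them were of miR-34, so the miR-449 family was not tested. Of the 4 members 0 were called by either tool and 1 had an unadjusted p under 0.05, with a median of -0.37.

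**Figure D5:**
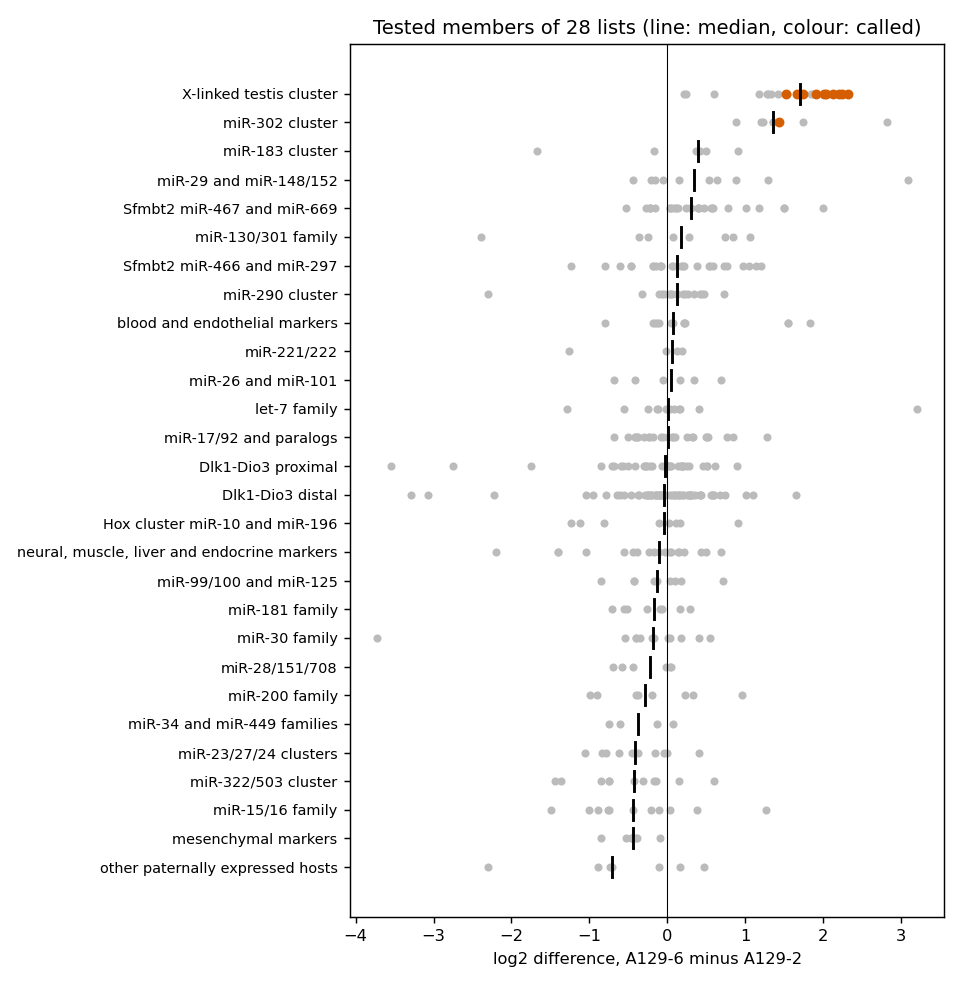
Log2 difference between A129-6 and A129-2 for tested members of 28 lists (points, orange where called) with the median of each list (bar). The X-linked testis cluster (median 1.69) and the miR-302 cluster (median 1.35) lie apart from the other lists, whose medians lie between -0.71 and 0.40.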

How the data were processed

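Small RNA was sequenced in all 12 libraries. Per the labels' protocols, small RNA received its 3' adapter first, then its 5' adapter, and was copied to cDNA. After PCR a gel slice was taken and read from a single end on a NovaSeq. PCR copies cannot be told apart, so intervals of shares cover counting error only. The deposited values are raw counts of reads per miRNA, per the labels. Per the submitters' processing notes the tools were Bowtie 0.12.9 and DESeq2. Genome build, miRBase release, strand use and handling of reads with several matches: not given in the sources used here.

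This table had 1549 rows (183 with predicted names), and every column was mapped by its name. filterByExpr (minimum count 10, minimum total 15) left 757 miRNAs. The 9 stem cell libraries were fitted together in R 4.3.3 with edgeR 4.0.16 (limma 3.58.1): TMM scaling, quasi-likelihood F-test of A129-6 against A129-2, two-sided, Benjamini-Hochberg over all 757, threshold 0.05. Levels are normalised CPM, and spermatid values are shares of counts. An exact permutation of 3 against 2 libraries could not go below 0.1 and was not used. The fit was tested on simulated data. The replicates within a line differed beyond sampling noise and were kept apart. Sequences, positions and annotation are from RefSeq, GRCm38.p6 (609 tested miRNAs matched a mature sequence).

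The miRNAs and lists were chosen with earlier results of these data known. Names were taken by rule: up to 15 largest called differences in each direction with separate libraries and at least 10 CPM, the 10 smallest p-values, the 10 highest levels, all let-7 members, and the 3 most abundant members of a list. Other members of the X-linked, miR-302 and miR-322 and miR-503 clusters, miRNAs called in an alternative analysis alone, and miR-291a-3p were named after their values were seen. Alternatives were other scalings, filters, sets of libraries, DESeq2 1.42.0, a replicate block, a GC correction and each library left out in turn.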

Additional observations from a re-analysis of the deposited data

How the results depend on the processing

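The 15 called miRNAs kept their direction in each of the 18 alternatives that tested them, but their number did not hold. Against 15 calls (13 higher, 2 lower, 10 of the X-linked cluster higher), total-count scaling gave 2 (1, 1 and 1), a stricter filter 1 (0, 1 and 0), no filter 38 (29, 9 and 16), DESeq2 42 (29, 13 and 16), the 5 libraries alone 30 (26, 4 and 16), and a replicate block 25 (21, 4 and 15). The replicate numbers did not pair the lines, since deviations of same-numbered libraries correlated at -0.07 and -0.03, and the block with a GC correction gave 22 (20, 2 and 15). Lower calls numbered 5 with relative log expression scaling, 4 with the 7 haploid libraries or with scaling that left out the miR-290 cluster (where 6 X-linked members were higher), and 1 with all 12 libraries or a GC correction. With each library left out, calls numbered 0 to 7 (0 to 6 higher, 0 to 1 lower, 0 to 1 of the cluster). The cause was not tested.

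Among the named miRNAs, a log2 difference turned in sign only where the miRNA did not pass. let-7a-5p was -0.17 with total-count scaling, -0.042 with the replicate block and -0.18 with the block and GC correction. With total-count scaling let-7d-5p was -0.19, let-7e-5p -0.11, let-7f-5p -0.22, miR-292b-3p -0.096, miR-370-3p -0.13, miR-433-3p -0.10, miR-409-3p -0.14 and miR-335-3p -0.041. let-7b-5p was 0.062 with upper-quartile scaling and 0.051 with all 12 libraries, and miR-411-5p 0.035 and 0.026. Scaling that left out the miR-290 cluster put let-7f-5p at -0.010. With the replicate block miR-292a-5p was -0.079, miR-292b-3p -0.026, miR-293-3p 0.18, miR-30d-5p -0.068, let-7f-5p -0.052, miR-370-3p -0.14 and miR-409-3p -0.14. With the block and GC correction miR-292a-5p was -0.090, miR-292b-3p -0.075, miR-293-3p 0.16, miR-127-3p 0.066, let-7d-5p -0.11, let-7f-5p -0.18, miR-409-3p -0.073, miR-298-5p 0.039 and miR-335-3p -0.068. With the GC correction alone miR-298-5p was 0.15.

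With each library left out, the ranges that crossed 0 were -0.15 to 0.52 for miR-292b-3p, -0.068 to 0.76 for miR-292a-3p, -0.076 to 0.58 for miR-294-3p, -0.26 to 1.02 for miR-295-3p, -0.97 to 0.46 for miR-143-3p and -0.096 to 1.03 for miR-292a-5p. They were -0.34 to 0.18 for miR-293-3p, -0.062 to 0.62 for miR-30d-5p, -0.16 to 0.43 for miR-409-3p, -0.30 to 0.37 for miR-411-5p, -0.024 to 0.44 for miR-335-3p and -0.14 to 0.37 for miR-370-3p. In the let-7 family they were -0.046 to 0.41 for let-7a-5p, -0.33 to 0.49 for let-7b-5p, -0.26 to 0.082 for let-7i-5p, -0.23 to 0.051 for miR-98-5p, -0.15 to 0.62 for let-7d-5p, -0.012 to 0.17 for let-7e-5p and -0.057 to 0.11 for let-7f-5p. In the X-linked cluster they were -0.16 to 0.98 for miR-463-5p, -0.36 to 2.97 for miR-547-3p and -0.51 to 0.49 for miR-883b-3p, all of them scarce.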
